A study of Mus musculus with 2 samples.

Results

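Intermediate filament genes were followed in the embryonic mouse brain, as 10 genes taken by name from the 24411 genes listed in each count file: the progenitor filament genes Nes and Vim, the neuronal filament genes Ina, Nefl, Nefm, Nefh and Prph, and the nuclear lamin genes Lmna, Lmnb1 and Lmnb2. RNA was sequenced from 2 areas of fresh frozen brain at embryonic day 16.5, the subventricular zone (SVZ), a layer beside the ventricle that holds dividing progenitors, and the cortex, whose outer layers hold postmitotic neurons. Each area was cut by laser-capture microdissection from a stained cryosection and gave 1 library from bulk tissue. Both libraries carry no treatment or engineered allele in the labels, and the sources used here do not give the strain, the sex or whether both areas came from 1 embryo. Reads assigned to genes numbered 51435667 in SVZ and 22050693 in cortex. Levels are counts per 1000000 such reads (CPM), so that 1 read stood for 0.0194 CPM in SVZ and 0.0454 CPM in cortex.

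With 1 library an area there was no replicate check and no test. Each ratio below is therefore a difference between 2 libraries, given with a 95% exact (Clopper-Pearson) interval that covers counting error only and leaves out the spread between embryos, sections and dissections. The reads carry no molecular identifiers and cannot be counted as separate molecules, so these intervals are narrower than the full error. In bulk tissue, fewer cells of a type and less RNA per cell cannot be told apart.

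Intermediate filaments are rope-like polymers of coiled-coil proteins that give cells mechanical strength, and each cell type builds them from its own choice of subunits. Neural progenitors build theirs from vimentin and nestin, whereas neurons switch to α-internexin and then to the neurofilament subunits as axons grow and mature. The lamins are the nuclear members of the family and form a meshwork under the nuclear envelope, with B-type lamins made in nearly all cells and A-type lamins scarce in the embryonic brain.

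The labelled areas differed in the marker genes of their main cell types. The summed level of 6 progenitor markers (Sox2, Hes1, Hes5, Slc1a3, Fabp7 and Pax6) was 6060 CPM in SVZ and 83.8 CPM in cortex. Fabp7 alone gave 4973 and 39.0 CPM of these sums. All 6 were at least 4-fold higher in SVZ, with log2 ratios from 3.65 to 8.05. That size was reached by 6.75% of the 9027 genes that averaged 10 CPM or more. The summed level of 6 neuron markers (Tubb3, Dcx, Map2, Rbfox3, Stmn2 and Snap25) was 1926 and 5931 CPM, so that neuronal RNA was read in both libraries. Of these markers, 2 were at least 4-fold higher in cortex, beside 4.70% of the 9027 genes, and their log2 ratios ran from −3.11 to −0.32.

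Short promoter windows show how the cytoplasmic filament genes differ at their starts. The windows below are bases 45 to 16 before the RefSeq transcription start (GRCm38.p6), each printed 5′ to 3′ on the plus strand, which is the strand of all 4 genes. Capitals mark a TATAAA match. The Vim window precedes the RefSeq start, but the GENCODE model given for Vim below starts further upstream, so that the window overlaps an exon of that gene. The coordinates are chr3:87971048-87971077 for Nes, chr2:13574266-13574295 for Vim, chr19:47014636-47014665 for Ina and chr15:99055129-99055158 for Prph.
Nes: gtatgaataccctcgcttcagctcgctgct
Vim: ttcctaacagtgtTATAAAagcagcgccct
Ina: cgccccaaccccgcgccttaaaagccccgc
Prph: ggagaccgcagggcTATAAAgccgccccgc
The TATAAA letters began 32 bases before the start in Vim and 31 bases before it in Prph, both of which code for type III filament proteins. Among 32851 mouse promoter entries, 2.63% held TATAAA on the gene's own strand in the last 50 bases before the start. The search covered 5 motifs on both strands over 250 bases before the start: TATAAA, held by 12.4% of entries, CCAAT by 33.8%, GGGCGG by 32.7%, CANNTG by 66.2% and ACAAT by 27.7%. TATAAA was in none of those of Nes, Ina, Lmna and Lmnb2. CCAAT was found for Vim and Lmna, GGGCGG for Nes, Ina, Prph, Lmna and Lmnb2, CANNTG for Ina and Lmnb2, and ACAAT for Nes and Lmna. Lmna and Lmnb2 had 2 promoter entries each, and a match in either was taken, whereas the shares above are per entry. For Lmna, GGGCGG and ACAAT were in 1 entry and CCAAT in the other. A match of letters is a description of the sequence and not evidence of a used site. Nefl, Nefm, Nefh and Lmnb1 had no promoter entry.

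The cytoplasmic filament genes divided by role. Both progenitor filament genes were higher in SVZ and each of the 5 neuronal filament genes was higher in cortex, with counting intervals that left out 0 for all 7. Intervals above 0 were found for 49.8%, and below 0 for 39.5%, of the 9027 genes that averaged 10 CPM or more over the 2 libraries. Nefl, Nefh and Prph averaged less than that and are not among the 9027. Summed over Nes and Vim, the level was 469 CPM in SVZ and 45.9 CPM in cortex, a log2 ratio of 3.35 (3.26 to 3.44), or 10.2-fold. Summed over Ina, Nefl, Nefm, Nefh and Prph, it was 14.7 and 245 CPM, a log2 ratio of −4.06 (−4.17 to −3.95), or 16.7-fold higher in cortex. The lamins together stood at 191 and 115 CPM, a log2 ratio of 0.74 (0.67 to 0.80).

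**Figure D1:**
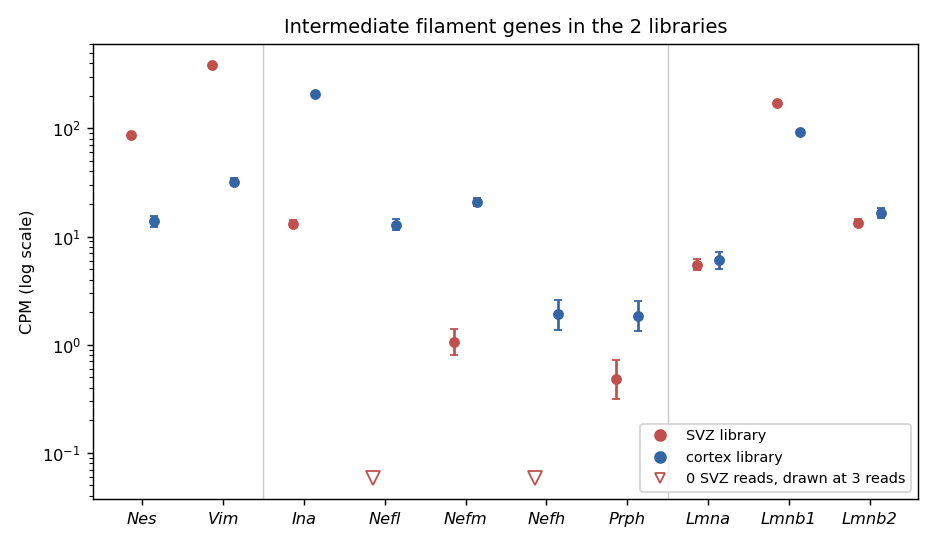
Level of each filament gene in the SVZ library (red) and the cortex library (blue), in CPM on a log axis, with exact 95% counting intervals as bars; grey lines separate progenitor filaments, neuronal filaments and lamins. Nes and Vim sit higher in SVZ, the 5 neuronal filament genes sit higher in cortex, and open triangles mark Nefl and Nefh, which had 0 SVZ reads and are drawn at the level of 3 reads (0.0583 CPM).

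Vim encodes vimentin, the type III filament protein of radial glia, the progenitors that span the embryonic cortical wall. It had 19670 reads in SVZ and 707 in cortex, or 382 and 32.1 CPM. The SVZ level was 11.9-fold higher, a log2 ratio of 3.58 (3.47 to 3.69), and 96.8% of those 9027 genes had a lower ratio. Ranked by CPM among all listed genes, Vim stood at place 416 in SVZ and at place 5585 in cortex. The gene lies on chromosome 2 from 13573927 to 13582826 (GRCm38), with 9 exons in a transcript of 2193 bases.

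Vimentin is also made by cells other than progenitors, among them vessel cells, meningeal fibroblasts and microglia. The summed level of 8 endothelial markers was 81.9 CPM in SVZ and 69.9 CPM in cortex. The 2 of them that averaged 10 CPM or more went opposite ways, Cldn5 at 37.3 and 20.4 CPM and Kdr at 12.2 and 16.6 CPM. The summed level of 6 mural cell markers was 88.8 and 57.9 CPM, of which Rgs5 gave 69.6 and 45.5 CPM. That of 6 meningeal markers was 4.59 and 9.39 CPM. The 8 microglial markers summed to 64.2 CPM in SVZ and 6.80 CPM in cortex, and each of them was higher in SVZ. These lists moved with the area to different extents, and their part in the Vim ratio was not tested.

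Nes encodes nestin, a large type IV filament protein that copolymerizes with vimentin in dividing progenitors. It had 4463 reads in SVZ and 306 in cortex, or 86.8 and 13.9 CPM. The SVZ level was 6.25-fold higher, with a log2 ratio of 2.64 (2.48 to 2.82), and 94.9% of the 9027 genes had a lower ratio. Nes lies on chromosome 3 from 87971078 to 87980451, with 4 exons in a transcript of 6126 bases. The genes with the most similar pair of levels were Npas3, at 87.4 and 13.8 CPM, and Cntrl, at 83.6 and 13.5 CPM. Likeness here was the distance between log2 levels over the 2 libraries, a description that rests on 2 points. By the same measure Rrm1, at 353 and 38.0 CPM, and Rasgef1b, at 316 and 29.1 CPM, stood nearest to Vim.

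The progenitor filaments did not change by the same amount. Per base of transcript, Vim stood 12.3-fold above Nes in the SVZ library and 6.45-fold above it in the cortex library. The log2 difference of these ratios was 0.93 (0.73 to 1.13). Such a ratio within a library does not depend on how libraries are scaled to each other. The ratios between members given here and below were chosen after the members' levels were seen.

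Ina encodes α-internexin, the type IV filament protein that appears in postmitotic neurons before the neurofilament subunits. It had 676 reads in SVZ and 4584 in cortex, or 13.1 and 208 CPM, and was 15.8-fold higher in cortex. Its log2 ratio was −3.98 (−4.10 to −3.87), and 1.10% of the 9027 genes had a lower one. In rank among all listed genes, Ina stood at place 8220 in SVZ and at place 959 in cortex. Its nearest genes by the pair of levels were Tshz3, at 13.3 and 213 CPM, and Ppp1r16b, at 13.9 and 208 CPM. Ina lies on chromosome 19 from 47014698 to 47025327, with 3 exons in a transcript of 3240 bases, and the RefSeq models of Ina and Nt5c2 overlap by 494 bases.

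Nefm encodes the medium neurofilament subunit, whose long tail sets the spacing of filaments in axons. It had 55 reads in SVZ and 461 in cortex, or 1.07 and 20.9 CPM. The cortex level was 19.6-fold higher, with a log2 ratio of −4.29 (−4.72 to −3.88), and 0.942% of the 9027 genes had a lower ratio. Rgs6, at 0.953 and 21.3 CPM, and Tenm1, at 0.972 and 22.6 CPM, had the most similar levels. The Nefm model on chromosome 14, from 68082590 to 68124846 on the minus strand, overlaps the antisense RNA A230070E04Rik, and the RefSeq models of the pair share 1253 bases. Reads in that overlap were assigned to no gene in the unstranded counts used here. Which of the 2 genes those reads came from cannot be told apart without strand. With all of them added to Nefm, as the sum of the counts on each strand, it reached 69 and 644 reads with a log2 ratio of −4.44.

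Nefl encodes the light subunit, which the other neurofilament subunits need in order to assemble. Not 1 of the SVZ library's reads was assigned to Nefl, whereas the cortex library had 283, or 12.8 CPM. Against a floor of 3 reads for a count of 0, 0.0583 CPM in SVZ, and with the cortex level as measured, Nefl was at least 220-fold higher in cortex. The exact interval of its log2 ratio, which also carries the counting error of the cortex reads, is wider than this floor and ended at −7.47. Nefl lies on chromosome 14 from 68083863 to 68089095, on the plus strand. It falls inside the span of the GENCODE model of Nefm, but 30449 bases separate the RefSeq models, and the sum of the counts on each strand gave Nefl the same 0 and 283 reads.

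Nefh encodes the heavy subunit, the last of the neurofilament subunits to be made as axons mature. It had 0 reads in SVZ and 42 in cortex, or 1.90 CPM, and was 32.7-fold higher in cortex against the same floor. The wider exact interval of its log2 ratio ended at −4.67. In the cortex library the neurofilament subunits therefore fell in the order Nefm, Nefl and Nefh, at 6.27, 3.80 and 0.477 CPM per kilobase of transcript. Nefh lies on chromosome 11 from 4938754 to 4948064.

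Prph encodes peripherin, a type III filament protein best known from peripheral neurons and neurons that project out of the brain. It had 25 reads in SVZ and 41 in cortex, or 0.486 and 1.86 CPM. The cortex level was 3.83-fold higher, with a log2 ratio of −1.94 (−2.71 to −1.18), the smallest ratio among the neuronal filament genes. Prph lies on chromosome 15 from 99055174 to 99058978, with 8 exons.

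Set against Ina within each library, the neuronal filament genes differed in how far they moved. Nefm stood at 0.0791 of Ina per base of transcript in SVZ and at 0.0977 in cortex. The log2 difference was −0.31 (−0.75 to 0.12), which spanned 0. This result rests on how overlapping reads are counted, since the sum of the counts on each strand gave −0.45 (−0.85 to −0.07), which left out 0. Prph stood at 0.0643 of Ina in SVZ and at 0.0156 in cortex, a log2 difference of 2.05 (1.26 to 2.81), so that the smaller difference of Prph was outside counting error. Nefl had fewer SVZ reads than the cortex ratios to Ina and Nefm would give, since the interval of the log2 difference ended at −3.49 against Ina and at −3.13 against Nefm. For Nefh against Ina it ended at −0.68.

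**Figure D2:**
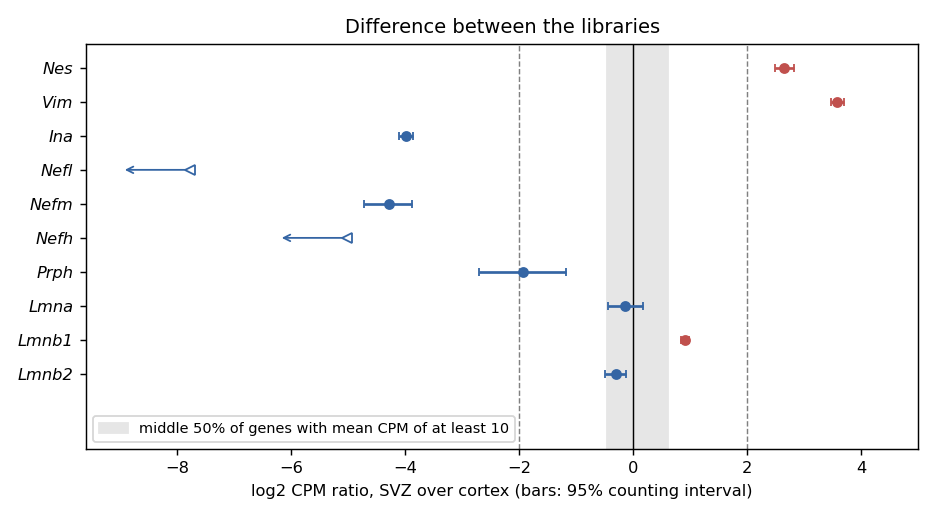
The log2 CPM ratio of each filament gene, SVZ over cortex, with 95% counting intervals as bars; red marks a ratio above 0, blue one below 0, dashed lines mark 4-fold, and the grey band holds the middle 50% of the 9027 genes averaging 10 CPM or more. Arrows mark Nefl and Nefh, drawn at the ratio against a floor of 3 SVZ reads (220-fold and 32.7-fold higher in cortex; their exact intervals ended nearer to 0, at −7.47 and −4.67); Lmna, at −0.14, is the member whose interval spans 0.

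The lamins were closer to even between the areas than the cytoplasmic filament genes. Lmnb1, which encodes lamin B1 and lies on chromosome 18 from 56707813 to 56753424, had 8873 reads in SVZ and 2036 in cortex, or 173 and 92.3 CPM. It was 1.87-fold higher in SVZ, with a log2 ratio of 0.90 (0.83 to 0.97), and 83.4% of the 9027 genes had a lower ratio. Lmnb2, which encodes lamin B2 and lies on chromosome 10 from 80901203 to 80918245, had 691 and 367 reads, or 13.4 and 16.6 CPM, and was 1.24-fold higher in cortex with a log2 ratio of −0.31 (−0.49 to −0.12). The B-type lamins thus moved in opposite directions. The Lmnb2 ratio lay within the middle 50% of the 9027 genes, whose quartiles were −0.46 and 0.61. That of Lmnb1 lay above the upper quartile.

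Lmna encodes lamins A and C, the A-type lamins. It had 282 reads in SVZ and 133 in cortex, or 5.48 and 6.03 CPM, and its log2 ratio of −0.14 (−0.44 to 0.17) spanned 0, so that a difference was not detectable at this depth. Lmna lies on chromosome 3 from 88480147 to 88509956. Lmnb1 stood 15.2-fold above Lmnb2 per base of transcript in SVZ and 6.58-fold above it in cortex, a log2 difference of 1.21 (1.01 to 1.41). Against Lmna the Lmnb1 ratio was 34.9 and 17.0, a log2 difference of 1.04 (0.72 to 1.35). The Lmnb2 to Lmna ratio, 2.29 in SVZ and 2.58 in cortex, had a log2 difference of −0.17 (−0.53 to 0.19) that spanned 0. Of the summed lamin level per length, Lmnb1 took 91.4% in SVZ and 82.6% in cortex.

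Levels of different genes were compared per kilobase of transcript. In the SVZ library Vim stood highest at 174 CPM per kilobase, followed by Lmnb1 at 60.7, Nes at 14.2, Ina at 4.06, Lmnb2 at 3.99, Lmna at 1.74, Nefm at 0.321 and Prph at 0.261. The neighbors Ina and Lmnb2 were not separated by counting error, with a ratio of 1.02 (0.914 to 1.13), nor were Nefm and Prph, with a ratio of 1.23 (0.753 to 2.06). In the cortex library Ina stood highest at 64.2 CPM per kilobase, followed by Lmnb1 at 32.5, Vim at 14.6, Nefm at 6.27, Lmnb2 at 4.94, Nefl at 3.80, Nes at 2.27, Lmna at 1.91, Prph at 0.998 and Nefh at 0.477. There Nes and Lmna were the neighbors not separated, with a ratio of 1.19 (0.964 to 1.46). Vim and Ina thus exchanged places as the leading cytoplasmic filament gene, with Ina at 0.0233 of Vim per base in SVZ and at 4.39 in cortex.

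Of the summed level per length of the 7 cytoplasmic filament genes, the neuronal genes took 2.40% in SVZ and 81.8% in cortex. Vim made up 90.3% and Nes 7.33% of that sum in SVZ, and Ina 2.10%. In cortex Ina made up 69.3%, Vim 15.8%, Nefm 6.77%, Nefl 4.10% and Nes 2.45%. Counted in reads without regard to length, the neuronal genes held 756 of 24889 cytoplasmic filament reads in SVZ, 3.04% (2.83 to 3.26), and 5411 of 6424 in cortex, 84.2% (83.3 to 85.1). The sum itself was 193 CPM per kilobase in SVZ and 92.6 in cortex.

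**Figure D3:**
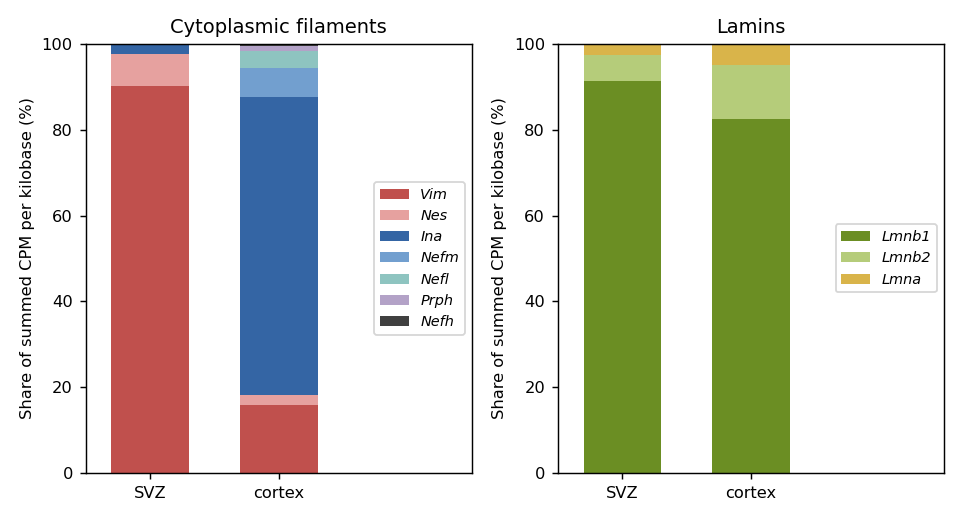
Makeup of the summed level (CPM per kilobase of transcript) of the 7 cytoplasmic filament genes (left) and of the lamins (right) in each library, as stacked shares of 100%. Vim (90.3%) fills most of the SVZ bar and Ina (69.3%) most of the cortex bar, while Lmnb1 leads the lamins in both.

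Set beside all genes, 6 of the 10 filament genes (Nes, Vim, Ina, Nefm, Lmnb1 and Lmnb2) averaged at least 10 CPM. Nefm lay just inside that limit at 11.0 CPM, and Nefl, Lmna, Prph and Nefh lay under it at 6.42, 5.76, 1.17 and 0.952 CPM. Nes and Vim were at least 4-fold higher in SVZ, a size reached by 6.75% of the 9027 genes. Ina and Nefm were at least 4-fold higher in cortex, a size reached by 4.70%. Nefl and Nefh were at least as far apart but fell under the limit on the mean.

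**Figure D4:**
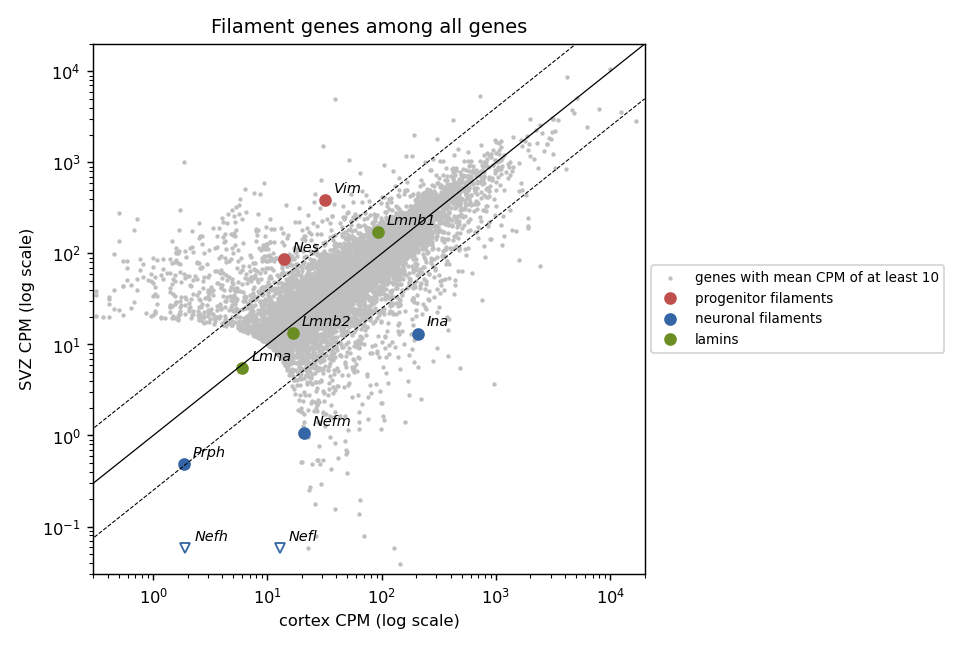
SVZ level against cortex level in CPM, both on log axes, for the 9027 genes averaging 10 CPM or more (grey; genes at 0 or beyond the axes are not drawn) and the filament genes (colored by role); the solid line marks equal levels and the dashed lines 4-fold. Nes and Vim lie above the upper dashed line, Ina and Nefm below the lower one, and Nefl and Nefh (open triangles, 0 SVZ reads, at 3 reads) below the cloud.

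Of 21 other intermediate filament genes, 4 averaged at least 10 CPM. None of these was 4-fold apart, a size reached by 6.75% of the 9027 genes toward SVZ and 4.70% toward cortex. Krt10, a keratin of suprabasal epidermis, led them at 67.7 CPM in SVZ and 45.2 CPM in cortex, with a log2 ratio of 0.58 (0.48 to 0.69). Its epidermal partner Krt1 was at 8.40 and 22.4 CPM, a log2 ratio of −1.42 (−1.61 to −1.23), so that these keratins leaned in opposite directions. Iffo2 had a log2 ratio of 0.73 and Iffo1 one of −0.72. Of the 21 genes, 7 had 0 reads in SVZ and 14 had 0 reads in cortex, where the library was 2.33 times shallower, and 9 had no more than 3 reads in either library. Among all 24411 listed genes, 15878 had reads in SVZ and 15064 in cortex.

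Cytolinkers are large proteins that tie intermediate filaments to microtubules, actin and junctions. Macf1 was at 202 CPM in SVZ and 297 CPM in cortex, a log2 ratio of −0.56 (−0.60 to −0.51), and Dst, whose neuronal form links filaments to microtubules, at 61.9 and 226 CPM, a log2 ratio of −1.87 (−1.94 to −1.81). These were the 2 of 7 cytolinker genes that averaged 10 CPM or more. Both intervals lay below 0, as did those of 39.5% of the 9027 genes, and neither gene was 4-fold apart.

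Genes of kinases that phosphorylate filament proteins at cell division were listed together with the cyclin gene Ccnb1. The list included 4 genes with larger ratios than any filament gene in the SVZ direction. Of the 6 listed genes, 4 were at least 4-fold higher in SVZ and none in cortex, beside 6.75% and 4.70% of the 9027 genes. Ccnb1, the mitotic cyclin, was at 299 and 4.85 CPM, and Cdk1, its kinase, at 247 and 3.99 CPM, both with a log2 ratio of 5.95. Aurkb, a kinase of the cleavage furrow, had a log2 ratio of 6.17, and Rock1, a kinase that is not limited to mitosis, one of 0.48.

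Genes for neurofilament kinases, turnover and transport were closer to even than the neurofilament genes themselves. Of 15 such genes, 13 averaged at least 10 CPM. None of the 13 was 4-fold apart, a size reached by 6.75% of the 9027 genes toward SVZ and 4.70% toward cortex. An interval above 0 was found for 4 and below 0 for 8, beside 49.8% and 39.5% of the 9027 genes. Their log2 ratios ran from −1.55 to 1.25, with a median of −0.41, beside 0.10 over the 9027 genes. Cdk5r2, an activator of the neurofilament kinase Cdk5 that was picked out after its values were seen, averaged less than that limit and was 5.55-fold higher in cortex, from 29 and 69 reads, at a log2 ratio of −2.47 (−3.15 to −1.83). Kif5b and Kif5c, motors that carry cargo along axons, were at 819 and 628 CPM and at 482 and 875 CPM, with log2 ratios of 0.38 and −0.86. Trim2, a ubiquitin ligase that binds the light neurofilament subunit, was at 871 and 366 CPM, a log2 ratio of 1.25 (1.22 to 1.28), and so was higher in SVZ, unlike Nefl. Gsk3b, a kinase of neurofilament tails, was at 415 and 575 CPM, a log2 ratio of −0.47.

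Lamin partners, the envelope and chromatin proteins that bind lamins, had ratios on both sides of 0, near the shares of all genes. Of 17 such genes, 14 averaged at least 10 CPM, with 7 intervals above 0 and 7 below it, beside 49.8% and 39.5% of the 9027 genes, a median log2 ratio of 0.09 and no gene 4-fold apart. Tmpo, which encodes the lamin-binding LAP2 proteins, came nearest to that size at 422 and 106 CPM, with a log2 ratio of 2.00 or 3.99-fold. Banf1, a DNA-bridging protein of the nuclear envelope, was at 412 and 258 CPM, a log2 ratio of 0.67. Syne2, which links the nucleus to the cytoskeleton, was at 280 and 167 CPM, and Tor1a, an ATPase of the envelope, at 101 and 119 CPM.

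Of the 5 lamin processing genes, 4 averaged at least 10 CPM. An interval above 0 was found for 2 of them and below 0 for 2, near the 49.8% and 39.5% of the 9027 genes. Fnta, a subunit of the farnesyltransferase that lipidates lamins, was at 179 and 116 CPM, a log2 ratio of 0.63. Zmpste24, the protease that matures prelamin A, was at 61.0 and 38.7 CPM, a log2 ratio of 0.66. Rce1, a protease of the same pathway, and Fntb, the other farnesyltransferase subunit, had log2 ratios of −0.79 and −0.37.

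**Figure D5:**
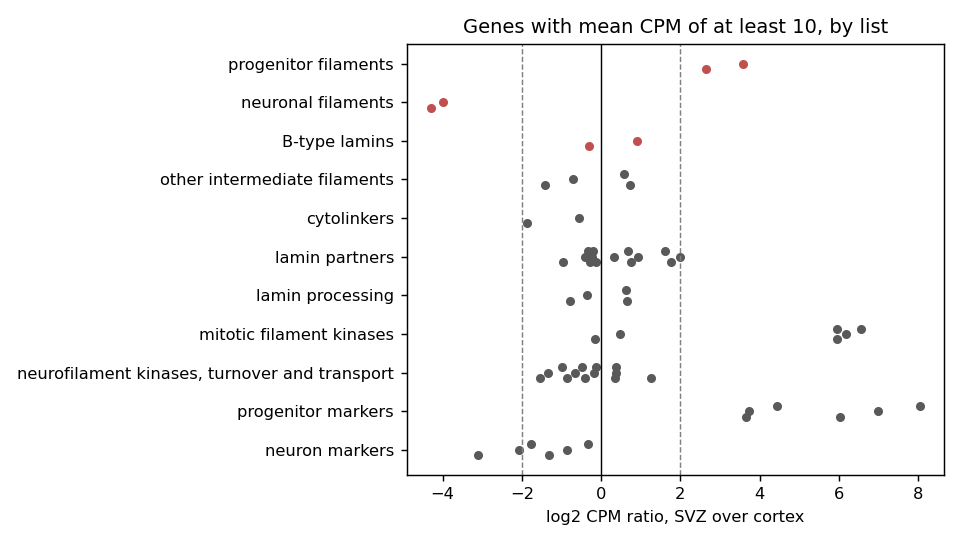
The log2 CPM ratio, SVZ over cortex, of each gene averaging 10 CPM or more, in rows by list (filament members in red, other genes in dark grey; dashed lines mark 4-fold). Progenitor filaments and progenitor markers lie to the right, neuronal filaments and neuron markers to the left, and lamin partners on both sides of 0.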

How the data were processed

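Total RNA from each microdissected area was made into a library with a low-input kit and sequenced. The authors trimmed the reads, aligned read 1 alone and counted it, and the deposited files hold counts of reads per gene in the STAR format, unstranded and for each strand. The submitters' processing notes list cutadapt 4.1, STAR 2.7.9a, SAMtools 1.9, featureCounts of Subread 2.0.3, deepTools 3.5.1 and the build mm10. A deposited table of both libraries, with counts of shared genes, CPM and the authors' own fold change, was not used.

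Unstranded counts were divided by the gene-assigned total, which was 59.0% and 59.1% of all reads, and the ratio was taken as SVZ over cortex, after the study's methods. Counts across genes took those averaging 10 CPM or more that were at least 4-fold apart. A count of 0 was bounded at 3 reads. Intervals were exact Clopper-Pearson intervals, and exact conditional intervals for changes of a ratio between members (SciPy). Overlaps between genes came from RefSeq models, and gene positions, transcript lengths and exons from GENCODE M21 (GRCm38), with the longest coding transcript paired with a curated RefSeq mRNA. Promoter sequences came from RefSeq, with 6 of 10 members matched.

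The members and lists were chosen with earlier results of these data known. The text names the 10 members, up to 4 genes of highest mean CPM in a list, and the 2 genes nearest to each of Nes, Vim, Ina and Nefm, and the cell type marker lists. Cdk5r2 and the genes under other observations fall outside this rule and were picked out after their values were seen. Nt5c2 and A230070E04Rik are named as genes that overlap a member. The marker list of peripheral neurons is not reported here. Alternatives were other scalings (edgeR and DESeq2 factors), minimum levels, folds, a pseudocount of 1 CPM, strand columns and length measures. The calculations were tested on counts simulated with counting error alone, which cannot check the spread between embryos, sections and dissections.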

Additional observations from a re-analysis of the deposited data

Results flagged for a closer look

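Reads in the stranded columns that the unstranded column leaves out were found for 2 members. Ina had 6 such reads in SVZ and 82 in cortex, and its overlapping neighbor Nt5c2 had the same numbers. Nefm had 14 and 183, as did the antisense RNA A230070E04Rik. These made up 20.3% and 28.4% of the stranded sum of Nefm, and which gene of the pair they came from cannot be told apart without strand. For Ina they made up 0.880% and 1.76%.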

How the results depend on the processing

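No paired analysis was possible because there was 1 library for each area. Of 60 recomputed member ratios, 53 moved by less than their counting interval, 7 moved by more and 0 reversed. Among the 7 were the ratios of Nefl, Nefm, Nefh and Prph with a pseudocount of 1 CPM, which drew all 10 ratios nearer to 0, and Lmnb1 under edgeR and DESeq2 factors, at 0.80 to 0.81. Under those scalings the median of all genes decreased by 0.0988 at most on the log2 scale. Of the 2 members at least 4-fold higher in SVZ, 1 was left at a minimum of 100 CPM and 1 at a 10-fold limit. Of the 2 in cortex, 1 was left at 100 CPM, and with no minimum there were 4. The neuronal share per length was 2.40% in SVZ and 81.8% in cortex; over coding length it was 3.18% and 86.0%, and over reads 3.04% and 84.2%. Recomputed from the sum of the strand columns, an alternative chosen after seeing the data, the change of the Nefm to Ina ratio moved from −0.31 to −0.45 and its interval came to leave out 0. With 1 library an area, counting intervals leave out the spread between embryos and dissections. Few reads lie behind Nefh, Prph and the SVZ levels of Nefl and Nefm.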

Other observations

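Some intermediate filament and cytolinker genes of low level were read in the SVZ library and at 0 reads in the cortex library. These and the other genes named in this section were chosen after their values were seen. How many of all genes were read in SVZ alone was not counted, and the cortex library was 2.33 times shallower. Gfap, the filament gene of astrocytes, had 105 reads in SVZ, a level 15.0-fold the cortex floor. Krt18, a keratin of simple epithelia, had 147 reads and was 21.0-fold above that floor. Bfsp2, a filament gene of the eye lens, had 120 reads and was 17.1-fold above it. The cytolinker gene Dsp, which encodes the desmosome protein desmoplakin, had 57 SVZ reads and was 8.15-fold above it. Krt8, the usual partner of Krt18, had 8 SVZ reads and 0 cortex reads. These folds set cortex at a floor of 3 reads; the exact intervals of the log2 ratios are wider, with lower ends of 3.58 for Gfap, 4.08 for Krt18, 3.78 for Bfsp2 and 2.68 for Dsp. All of these lay under 3 CPM in SVZ. Synm, which encodes synemin, a partner of vimentin, was read in both libraries, with 126 SVZ and 107 cortex reads and a log2 ratio of −0.99 (−1.37 to −0.60), the direction opposite to Vim. Krt222 also leaned to cortex, with 28 SVZ and 55 cortex reads and a log2 ratio of −2.20 (−2.91 to −1.51). Lbr, the lamin B receptor, was at 156 CPM in SVZ and 45.8 CPM in cortex, a log2 ratio of 1.77 (1.67 to 1.86).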
